A study of Homo sapiens with 45 samples.

Results

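The genes of the cytosolic ribosomal proteins were followed through 45 mRNA libraries of HAP1 cells. They were chosen by symbol: RPL or RPS followed by a number and an optional A, X or L, together with RPSA, RPLP0, RPLP1 and RPLP2, and with a mean of at least 10 raw counts over the libraries. Of 60676 genes in the table, 81 symbols matched and 77 met the minimum: 31 of the small subunit, 43 of the large subunit and 3 of the stalk. The other 4 fell below it and are described no further. No measured response entered the choice beyond this minimum.

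HAP1 is a near-haploid human line derived from KBM-7, and 5 edited lines were set against AAVS1, a line named for a site often edited as a neutral control. RNF25 KO cells and GCN2 KO cells were treated with 25 nM halofuginone (HF), with 5 uM azacytidine (azaC) or with neither. Cells of the eS31 K113R, ZNF598 KO and RNF25 GCN2 DKO lines were treated with 5 uM azaC or left untreated. AAVS1 cells were treated with 25 nM HF, with 5 uM azaC or with neither. Treatments lasted 4 h, every group held 3 libraries labelled as biological replicates, and the labels do not say whether a line is 1 clone. Every p-value below rests on how far these libraries differ within a group, a spread that may be technical.

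Each ribosome carries a copy of nearly every ribosomal protein, and dividing cells devote a large part of their mRNA to them. Their mRNAs typically begin with a terminal oligopyrimidine (TOP) tract, a cytidine at the cap followed by pyrimidines, through which LARP1 and the kinase mTORC1 control translation more than mRNA amount. RPS27A encodes ubiquitin fused to the small-subunit protein eS31, a site of regulatory ubiquitylation at stalled ribosomes. RNF25 and ZNF598 attach ubiquitin to such ribosomes, the kinase GCN2 starts the integrated stress response, HF inhibits prolyl-tRNA synthetase, and azaC is a cytidine analogue that enters RNA. The title of the series asks how RNF25 affects tolerance to azaC and the activity of that stress response.

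The codon changed in the eS31 K113R line lies in exon 6 of the 6 exons of RPS27A, which has 156 codons, and K113R is counted from the start codon of the ubiquitin fusion. In the reference it is a lysine codon, shown in capitals because it is the edited position, at chr2:55235431-55235457 on the plus strand of GRCh38.
RPS27A edited codon: gatgagaatggcAAAattagtcgcctt

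The start sites of the genes on which the results turn are shown next, with 15 bases before and 15 from the RefSeq start (GRCh38.p14), to set the TOP feature beside the changes. Capitals mark a pyrimidine run led by C, of at least 5 bases, that begins within 5 bases of the start, as far as the window reaches. Where several starts are listed, the one with such a run is shown. RPL24 and RPL7A were called lower in the HF average (chr3:101686704-101686733, minus strand, and chr9:133348203-133348232, plus strand). RPL7A lost its call in 15 of 27 alternative fits. RPL23, also called lower there, had no entry in the RefSeq table.
RPL24: ttcccatgattctctCTTTCTTTTCgccat
RPL7A: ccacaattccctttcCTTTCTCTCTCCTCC
The X-linked genes lowered in eS31 K113R were RPL10 (chrX:154398362-154398391, plus), RPL36A (chrX:101390996-101391025, plus), RPL39 (chrX:119791616-119791645, minus) and RPS4X (chrX:72277234-72277263, minus).
RPL10: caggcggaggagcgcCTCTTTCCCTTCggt
RPL36A: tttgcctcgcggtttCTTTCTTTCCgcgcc
RPL39: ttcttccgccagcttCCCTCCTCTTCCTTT
RPS4X: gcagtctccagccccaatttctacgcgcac
RPL9 (chr4:39458908-39458937, minus) was higher in the RNF25 lines, and RPS27A (chr2:55232673-55232702, plus) encodes eS31.
RPL9: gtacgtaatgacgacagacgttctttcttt
RPS27A: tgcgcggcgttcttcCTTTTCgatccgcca
The RefSeq table matched 62 of the 77 genes, and 53 of these (85.5%) had a run at a listed start, against 29.4% of 8186 other tested genes. The search took a C followed by at least 4 bases that were each C or T. Per listed start the share was 74% for the ribosomal protein genes and 21.1% for all promoters in the table. On the opposite strand the shares were 11.7% and 18.6%. The genes without it were RPL15, RPL27, RPL6, RPL9, RPS15, RPS26, RPS27L, RPS29 and RPS4X, and for these the search says only that the letters are not at the listed start.

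Library totals ran from 1135498 to 2478875 counts, with a median of 1541554, and no library duplicated another of its group. AAVS1 untreated replicate 2 and RNF25 KO azaC replicate 2 stood apart in how counts depended on GC content. The first held 94.7 CPM of RPL10 (CPM, counts scaled to a common library size). The second held 2705 CPM of RPL10. Of 12 haematopoietic marker genes 2 were abundant enough to test (TAL1 and GATA2), as were 3 of 7 mesenchymal markers (VIM, COL1A1 and PDGFRA), 1 of 7 epithelial (KRT18) and 1 of 4 neural (MAP2). Mean GCN2 (EIF2AK4) mRNA was 21.8 CPM in untreated GCN2 KO and 39.3 CPM in untreated DKO, against 43.7 CPM in untreated AAVS1. ZNF598 mRNA was 36.9 CPM in untreated ZNF598 KO, against 62.1 CPM in untreated AAVS1, and RNF25 had at most 7 counts in any library, too few to check its label. Untreated eS31 K113R replicates 2 and 3 carry titles reading eS32_K223R although their count columns are named eS31_K113R, and they were placed by the column name.

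The 77 genes took 16.3% of all counts. By library the share ran from 13.0% in AAVS1 untreated replicate 2 to 19.8% in RNF25 KO azaC replicate 2, with a median of 16.5%. The group means lay close together next to the spread within groups. After HF the share was 15.7 ± 1.60% in RNF25 KO, 15.6 ± 1.49% in GCN2 KO and 16.6 ± 1.58% in AAVS1. After azaC it was 17.8 ± 1.75% in RNF25 KO, 15.7 ± 0.94% in GCN2 KO, 15.1 ± 0.49% in DKO, 16.4 ± 1.26% in ZNF598 KO, 16.0 ± 1.21% in eS31 K113R and 17.1 ± 1.14% in AAVS1. Untreated cells had 16.5 ± 1.43% in RNF25 KO, 16.1 ± 1.103% in GCN2 KO, 15.6 ± 1.24% in DKO, 16.8 ± 1.65% in ZNF598 KO, 16.9 ± 1.71% in eS31 K113R and 16.5 ± 2.98% in AAVS1 (SD, n = 3 each). No test was made on this share. In bulk RNA, fewer cells of a type and less RNA per cell cannot be told apart.

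**Figure D1:**
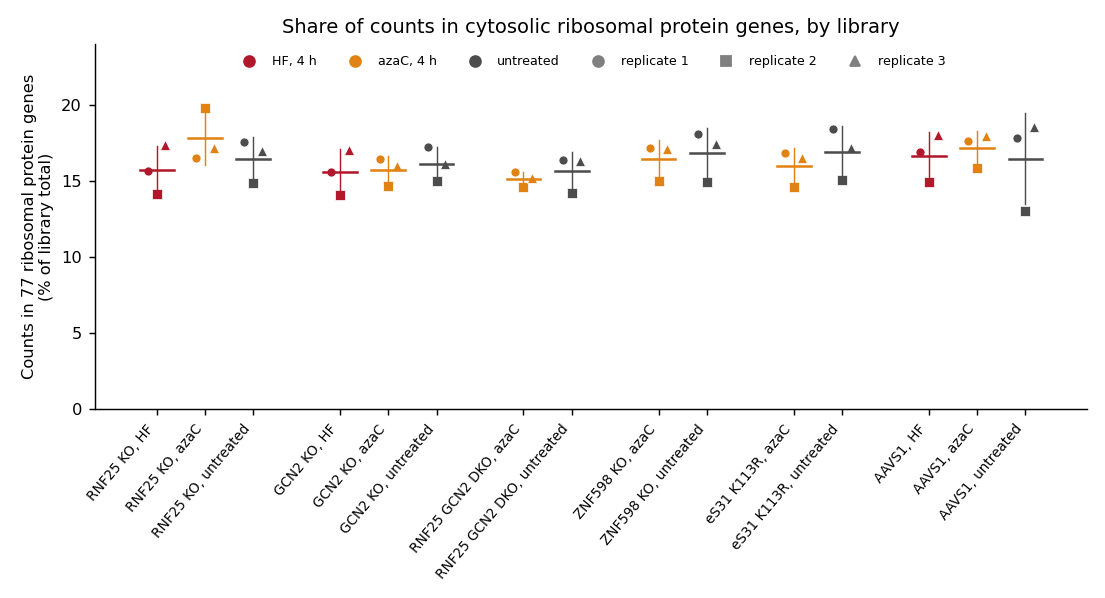
Percent of each library's counts that fell in the 77 ribosomal protein genes, by genotype and treatment; points are libraries, horizontal lines group means and vertical lines 1 SD. Replicate 2 (squares) is the lowest library in 14 of 15 groups and the highest in RNF25 KO azaC.

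The level of these genes moved with the replicate number. In 14 of 15 groups the library numbered 2 had the smallest share, with RNF25 KO azaC the exception. Libraries numbered 2 held a median of 14.8% (15 libraries), and those numbered 1 or 3 a median of 17.1% (30 libraries). Gene by gene, the lowest library of a group was number 2 in 73.2% of 1155 pairs of ribosomal protein gene and group, against 34.9% of the pairs over all tested genes. RPS4X, RPL11 and RPS23 were lowest in number 2 in 15 of 15 groups, and RPS27A, RPS24 and RPS3A in 14. Some genes went otherwise: RPL23A was lowest in number 3 in 15 of 15 groups, and RPL6 and RPS29 in 10. Pseudogene rows held more counts than RPL23A itself, as given below, so its level is uncertain. RPL39L was lowest in number 1 in 12 groups and RPS27L in 10. The labels say nothing on what the numbers share, and the part of this in the results below was not tested beyond the fits given at the end.

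Levels per transcript length spanned a wide range although the proteins are needed in nearly equal amounts. RPL41, the smallest ribosomal protein, led with 14660 CPM per kb of transcript, followed by the stalk protein gene RPLP1 with 13750, RPS29 (uS14) with 11190, RPS27A with 9704 and RPL37A (eL43) with 9249. At the low end RPL39L, a second gene for the tunnel protein eL39, had 36.6 CPM per kb. Other low levels were those of RPL22 (eL22) with 236.5, RPL36A (eL42) with 352 and RPL10 (uL16, which is added late to the large subunit) with 491.5. Counts may be shared with near-identical copies for several of these. Rows with a gene's symbol followed by P and digits, taken as its pseudogenes, held counts equal to 63.7% of RPL36A's own and 43.0% of RPL10's. For the 77 genes together the figure was 3.45%. It was over 5% for 12 of them and highest for RPL23A, at 285%. RPL10 also has 52.7% of its exon bases under exons of the opposite strand, and the strand setting of the counting is not given in the sources used here. The levels of RPL36A, RPL10 and RPL23A are therefore uncertain.

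**Figure D2:**
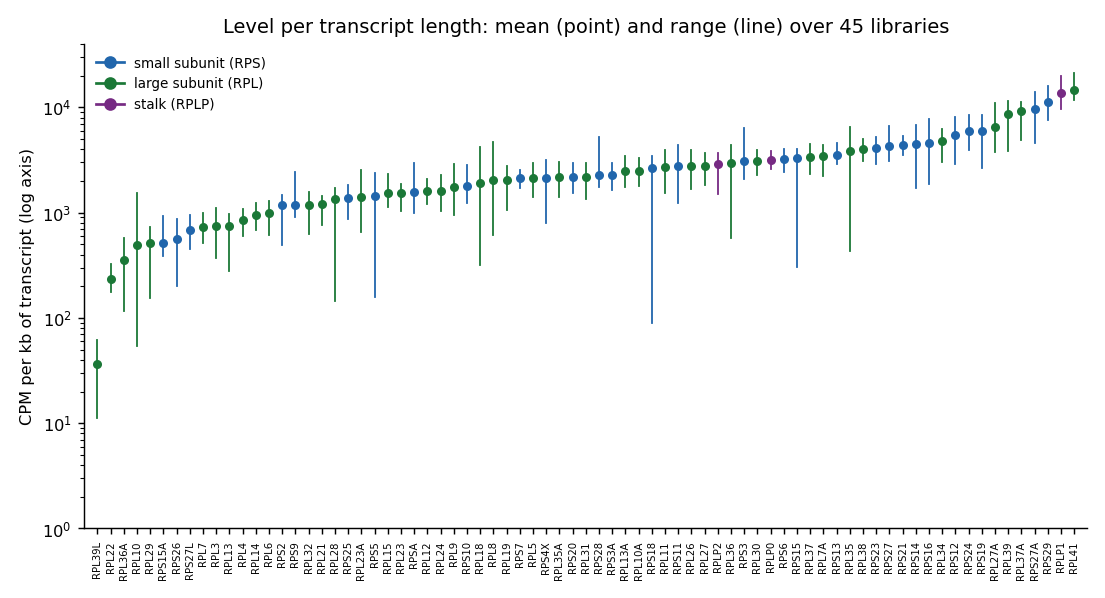
Mean level in CPM per kb of transcript (log axis) of 75 of the 77 genes over 45 libraries, with the range over libraries as a line; colours mark the subunit. RPL41 is highest at 14660 and RPL39L lowest at 36.6.

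Across the 15 group means of log2 CPM these genes varied about as much as other genes of their abundance. Their median SD was 0.131, against 0.147 for the 361 other genes whose mean level was at or above the lowest 5% of the ribosomal protein genes. Within groups the order was the other way round, with a median SD of 0.254 for the ribosomal protein genes and 0.214 for those others. RPS21 (eS21) had the smallest SD over groups at 0.059, then RPL15 (eL15) at 0.070. Among the large SDs were those of RPL10 at 0.457 and RPL9 (uL6) at 0.406. RPL10 holds extreme values of the libraries that stood apart. It was also low in eS31 K113R, with means of 474.2 CPM untreated and 466.7 CPM after azaC. RPL9 differed by line as well. Pairs of ribosomal protein genes had a median correlation of 0.304 over the 15 group means, from -0.688 to 0.975. RPS27A was most like RPS24 (r = 0.909), followed by CACYBP (0.904), MT-ND3 (0.883), NPM1 (0.882) and ZC3H14 (0.876). These are descriptions over 15 means that share libraries and depth.

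azaC changed no ribosomal protein mRNA past the threshold in any line. edgeR's quasi-likelihood test over 11078 genes called 0 of 77 in each of the 6 genotypes at an adjusted p under 0.05. The background was 0.469% of all tested genes in RNF25 KO, 0% in GCN2 KO, 0% in DKO, 0.117% in ZNF598 KO, 0.515% in eS31 K113R and 0.117% in AAVS1. At an unadjusted p under 0.05 there were 5 of the genes in RNF25 KO (all higher), 1 in eS31 K113R (lower), 3 in AAVS1 (all higher) and 0 in GCN2 KO, DKO and ZNF598 KO. The shares of all tested genes at that p were 9.31% in RNF25 KO, 5.23% in eS31 K113R and 4.83% in AAVS1. DESeq2 called 0 in each genotype as well. The 5 in RNF25 KO were RPL8, RPS15A, RPS28, RPS9 and RPSA, with RPS28 (eS28) at a log2 change of 0.58 ± 0.20 (SE), adjusted p = 0.287 in edgeR. AzaC replicate 2, a library that stood apart, held the high values. RPS28 had 3060, 6969 and 2723 CPM in azaC-treated RNF25 KO, against 2959, 2648 and 2934 CPM untreated. Without that library RPS28 was at 0.02 ± 0.17, and 0 of the 77 were at an unadjusted p under 0.05, against 4.69% of all genes. The 3 in AAVS1 (RPL18, RPS14 and RPS16) likewise became 0 higher and 1 lower without AAVS1 untreated replicate 2, against 3.78% of all genes.

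Averaged over the 6 genotypes the azaC response again had 0 of 77 called, against 1.14% of all genes, with 1 at an unadjusted p under 0.05 (11.32% of all genes) and 0 by DESeq2. The median change of the genes was -0.04 on the log2 scale, against 0.00 for all tested genes, and 51 of 77 were negative. The gene with the lowest value was RPS10 (eS10, a target of ZNF598) at -0.27 ± 0.11, edgeR adjusted p = 0.28. Next were RPL36A at -0.20 ± 0.11 and RPS24 (eS24) at -0.19 ± 0.10. At the other end stood RPL18 (eL18) at 0.19 ± 0.12, RPL10 at 0.17 ± 0.15 and RPS14 (uS11) at 0.16 ± 0.08. Without both libraries that stood apart these were 0.03 for RPL18, -0.02 for RPL10 and 0.06 for RPS14. The median of the 77 genes was then -0.07, with 71 negative and 0 called in edgeR. At an unadjusted p under 0.05 there were then 4, all lower, against 10.9% of all genes in either direction. The median SE of a ribosomal protein gene was 0.08 here and 0.20 in a single genotype, which sets the size of change that could be seen. Exons of RPS10 overlap the read-through gene RPS10-NUDT3 on the same strand over 39.4% of their bases.

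After HF, 3 large-subunit genes were called lower in the average of RNF25 KO, GCN2 KO and AAVS1, and none higher. The 3 of 77 are near the share of all tested genes, of which 3.07% were called lower and 7.53% in either direction. Over alternative fits the count ran from 0 to 8. At an unadjusted p under 0.05 there were 8, all lower, against 19.65% of all genes in either direction. DESeq2 called the same number, 3, and 0 higher. The median change was -0.10, against 0.01 for all genes, with 57 of 77 negative. Without AAVS1 untreated replicate 2 the median was -0.15, with 72 negative and 4 called. In that fit 17 were at an unadjusted p under 0.05 (all lower), against 21.32% of all genes in either direction. For the small subunit the median was -0.04 and for the large subunit -0.13. By genotype these medians were -0.08 and -0.19 in RNF25 KO, -0.12 and -0.13 in GCN2 KO, and 0.01 and -0.075 in AAVS1. A difference between the subunits was not tested.

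**Figure D3:**
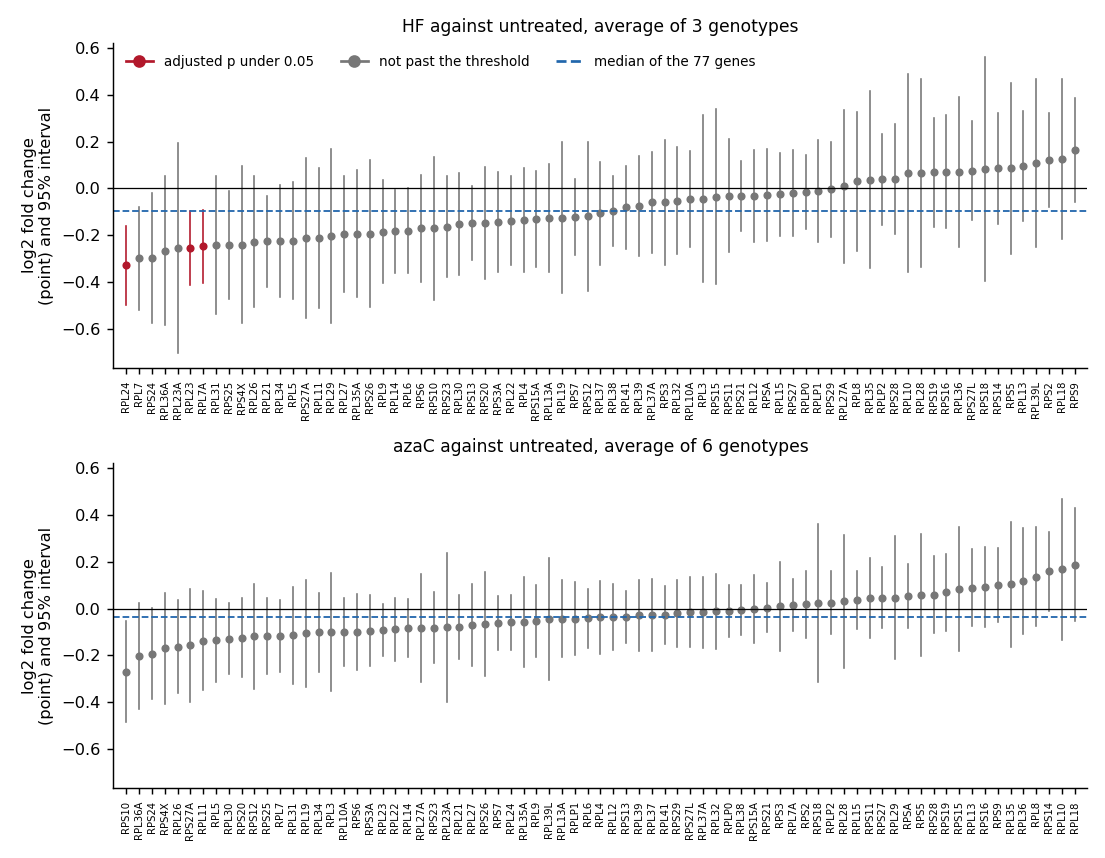
Log2 change of 75 of the 77 genes after HF (upper panel, average of 3 genotypes) and after azaC (lower panel, average of 6 genotypes) against untreated cells, with 95% intervals, sorted by size within a panel. RPL24, RPL23 and RPL7A are the 3 past the threshold after HF, none is after azaC, and the dashed lines mark the medians of all 77 genes, -0.10 and -0.04.

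RPL24 encodes eL24, which forms a bridge between the subunits, and lies at chr3:101681091-101686782 on the minus strand. It had 652, 801 and 905 CPM in HF-treated RNF25 KO, against 1099, 1050 and 1108 CPM in untreated RNF25 KO. In HF-treated AAVS1 it had 788, 802 and 961 CPM, against 1173, 1148 and 1185 CPM in untreated AAVS1. Both pairs of groups were fully separated. GCN2 KO had 970, 954 and 1171 CPM after HF, against 1058, 1141 and 1038 CPM untreated, and these groups overlapped. The averaged change was -0.33 ± 0.08 (SE), edgeR adjusted p = 0.00787.

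By genotype, RPL24 changed by -0.47 in RNF25 KO (edgeR adjusted p = 0.0923), -0.06 in GCN2 KO (0.952) and -0.46 in AAVS1 (0.108), each with an SE of 0.145. None of the 3 passed alone. The response in GCN2 KO minus that in AAVS1 was 0.39, with a 95% interval from -0.02 to 0.81 and adjusted p = 0.741 in edgeR, so the genotypes were not shown to differ. Over the 7 differences between drug responses tested by edgeR, 0 ribosomal protein genes were called in any. For HF the background was 0% of all genes in RNF25 KO minus AAVS1 and 0.334% in GCN2 KO minus AAVS1. For azaC it was 0.00903% in GCN2 KO and in eS31 K113R minus AAVS1, 0% in RNF25 KO and in ZNF598 KO minus AAVS1, and 0.117% in DKO minus RNF25 KO. There were 3 of the genes at an unadjusted p under 0.05 in DKO minus RNF25 KO, against 5.51% of all genes, and 0 in the others. DESeq2 called 0.

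RPL23 encodes uL14, which also binds MDM2, and lies at chr17:38847865-38853843 on the minus strand. It had 642.5, 753 and 889 CPM in HF-treated RNF25 KO, against 949.5, 922 and 1017 CPM untreated. In GCN2 KO it had 888, 890 and 1015 CPM after HF, against 1121, 996 and 943 CPM untreated. AAVS1 had 869, 825.5 and 985 CPM after HF, against 1067, 1061 and 1163 CPM untreated. The groups were separated in RNF25 KO and AAVS1 and overlapped in GCN2 KO. The averaged change was -0.26 ± 0.08, edgeR adjusted p = 0.0337, and it missed the threshold without any of 9 single libraries (adjusted p up to 0.099). These were untreated replicate 3 of AAVS1 and of RNF25 KO, untreated replicate 1 of GCN2 KO, and HF replicates 1 and 2 of all 3 genotypes.

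RPL7A encodes eL8, whose introns hold small nucleolar RNAs, and lies at chr9:133348214-133351426 on the plus strand. It had 2101, 1747 and 2489 CPM in HF-treated RNF25 KO, against 2729, 2368 and 2675 CPM untreated. Values in HF-treated GCN2 KO were 2607, 2204 and 2885 CPM, against 2856, 2559 and 2688 CPM untreated. Those in HF-treated AAVS1 were 2391, 2123 and 2769 CPM, against 3202, 2971 and 3269 CPM untreated. AAVS1 was the genotype whose groups were separated. The averaged change was -0.25 ± 0.08, edgeR adjusted p = 0.0394, missed without any of 12 single libraries (adjusted p up to 0.118), namely untreated replicates 1 and 3 and HF replicates 1 and 2 of all 3 genotypes.

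Other genes with low HF averages did not pass. RPL7 (uL30) was at -0.30 ± 0.11 and RPS24 at -0.30 ± 0.14, with edgeR adjusted p = 0.0858 and 0.21. RPL7 passed without AAVS1 untreated replicate 2 (-0.34, edgeR adjusted p = 0.0402). The highest values were RPS9 (uS4) at 0.16 ± 0.11, RPL18 at 0.12 ± 0.17 and RPS2 (uS5) at 0.12 ± 0.10. Without that library RPL18 was at -0.03 and RPS2 at 0.02, and RPS9 stayed at 0.16. Genes with a pyrimidine run at a listed start had a median HF change of -0.08 (53 genes, from -0.33 to 0.16). Those without it had -0.18 (9 genes, from -0.24 to 0.08), and those with no RefSeq entry -0.11 (15 genes). The ranges overlapped, and a difference was not tested. In single genotypes 0 of 77 were called after HF, against 1.73% of all genes in RNF25 KO, 1.24% in GCN2 KO and 1.54% in AAVS1. At an unadjusted p under 0.05 there were 3 in RNF25 KO, 0 in GCN2 KO and 3 in AAVS1, all lower, against 10.9%, 9.81% and 11.17% of all genes in these genotypes. DESeq2 called RPL24 in RNF25 KO and 0 in GCN2 KO and AAVS1.

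Lists of related genes held 0 to 2 calls each after HF, against 7.53% of all tested genes called in either direction and 3.07% called lower. Of 7 ribosomal constituents outside the naming rule (such as FAU and RACK1) 0 passed, with a median change of -0.05. Of 17 tested TOP genes of the translation machinery 0 passed, with a median of -0.14. Among 13 regulators of TOP mRNAs and mTORC1, EIF4EBP1, an inhibitor of the cap-binding factor eIF4E, was higher by 0.65 ± 0.19 (edgeR adjusted p = 0.0243). Among 7 chaperones dedicated to single ribosomal proteins, GRWD1, which escorts uL3, fell by 0.52 (SE 0.15, edgeR adjusted p = 0.0284). Of 68 mitochondrial ribosomal protein genes, 0 were higher and 2 lower, MRPS23 at -0.45 ± 0.10 and MRPL3 at -0.38 ± 0.11, with edgeR adjusted p = 0.00149 and 0.0227 and a median over the list of -0.095. These 2 are 2.94% of the list, near the 3.07% of all genes. After azaC, averaged, none of these 5 lists had a call in edgeR.

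RPS27A itself did not pass in any comparison. It had 5216, 6222 and 8103 CPM in HF-treated RNF25 KO, against 9136, 6307 and 8382 CPM in untreated RNF25 KO. The averaged change was -0.21 ± 0.17 after HF and -0.16 ± 0.12 after azaC, with edgeR adjusted p = 0.533 and 0.666. In eS31 K113R it had 10570, 4780 and 9741 CPM untreated and 9041, 4895 and 8127 CPM after azaC. AAVS1 had 9914, 5879 and 9676 CPM untreated and 7353, 5405 and 8712 CPM after azaC. The eS31 K113R and AAVS1 groups overlapped, with replicate 2 the lowest in each of these 4. The difference, averaged over untreated and azaC, was 0.01 ± 0.21 (95% interval -0.41 to 0.43), and its sign turned in 10 of 22 alternative fits. The table counts mRNA per gene and does not tell the edited codon from the reference.

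All 4 X-linked ribosomal protein genes were lower in eS31 K113R than in AAVS1, in the average over untreated and azaC-treated cells. These were the only calls among the 77, against 3.69% of all tested genes called lower and 6.93% called in either direction. For untreated cells alone, 2 of 77 were called lower, RPL39 and RPL36A, against 1.69% of all genes called lower and 2.87% in either direction. RPL36A missed the threshold there without replicate 1 or 3 of untreated AAVS1 or replicate 2 or 3 of untreated eS31 K113R (adjusted p up to 0.335). The median of the 77 was 0.01 in the average and 0.04 untreated, against 0.02 and 0.01 for all genes. Without AAVS1 untreated replicate 2 it was -0.085 in the average and -0.12 untreated, and 4 were called in untreated cells.

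RPL39 encodes eL39, which lines the exit tunnel, and lies at chrX:119786504-119791643. It had 2687, 1884 and 2217 CPM in untreated eS31 K113R and 2249, 1548 and 2118 CPM in azaC-treated eS31 K113R. AAVS1 had 4594, 3424 and 4506 CPM untreated and 4610, 3500 and 4278 CPM after azaC. No eS31 K113R library reached any AAVS1 library. The averaged difference was -0.975 ± 0.13, edgeR adjusted p = 4.00e-07, and it passed in 22 of 22 alternative fits. It was -0.88 ± 0.19 for untreated cells, adjusted p = 0.00207 in edgeR.

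RPS4X encodes eS4 and lies at chrX:72255679-72277300. It had 2897, 1300 and 2281 CPM in untreated eS31 K113R and 2225, 1217 and 2199 CPM in azaC-treated eS31 K113R. AAVS1 had 4865, 2758 and 4656 CPM untreated and 3435, 2624 and 4268 CPM after azaC. The 12 libraries overlapped in 1 place, where untreated eS31 K113R replicate 1 exceeded replicate 2 of both AAVS1 groups. The averaged difference was -0.90 ± 0.21, edgeR adjusted p = 0.00217.

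RPL36A encodes eL42 and lies at chrX:101390824-101396154. Its values were 245, 81.1 and 175 CPM in untreated and 172, 89.6 and 134 CPM in azaC-treated eS31 K113R. In AAVS1 they were 401, 254 and 347 CPM untreated and 243, 186 and 273 CPM after azaC. The lines overlapped, with untreated eS31 K113R replicate 1 above the lower AAVS1 libraries. The averaged difference was -0.92 ± 0.20, edgeR adjusted p = 0.00106.

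RPL10, at chrX:154389955-154409168, had 468, 419 and 535 CPM in untreated and 463, 416.5 and 520.5 CPM in azaC-treated eS31 K113R. AAVS1 had 1003, 94.7 and 1125 CPM untreated and 932, 818 and 1125 CPM after azaC. All libraries were lower in eS31 K113R except against AAVS1 untreated replicate 2. The averaged difference was -0.84 ± 0.26, edgeR adjusted p = 0.037, and 11 of 22 alternative fits lost it. Among these were the fits without replicate 1 or 3 of either AAVS1 group, or replicate 1 or 2 of either eS31 K113R group. Without AAVS1 untreated replicate 2, the untreated difference was -1.17, adjusted p = 0.00232 in edgeR, against -0.64 ± 0.37 and adjusted p = 0.525 with it.

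The change was shared by the chromosome. The 411 other tested X-linked genes had a median of -0.88 in eS31 K113R against AAVS1, with 231 called lower and 4 higher, against 0.03 for genes on other chromosomes. By library, their median log2 difference from the mean of untreated and azaC-treated AAVS1 was between -0.83 and -0.72 in the 6 eS31 K113R libraries, and between -0.33 and 0.11 in the other 39 libraries. The untreated eS31 K113R libraries whose title names another substitution were at -0.81 and -0.72, and replicate 1 was at -0.81. Without those 2 libraries RPL39 alone was called in the average, and 0 of the 77 in untreated cells. The low end of the other 39 was held by GCN2 KO, where the X median ran from -0.33 to -0.25. There the averaged differences were -0.40 ± 0.13 for RPL39, -0.32 ± 0.19 for RPL36A, -0.25 ± 0.20 for RPS4X and -0.19 ± 0.26 for RPL10, none past the threshold (edgeR adjusted p = 0.0782 for RPL39). Dosage of the chromosome was not measured, so its part in this was not tested. Comparisons of lines share the AAVS1 libraries.

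**Figure D4:**
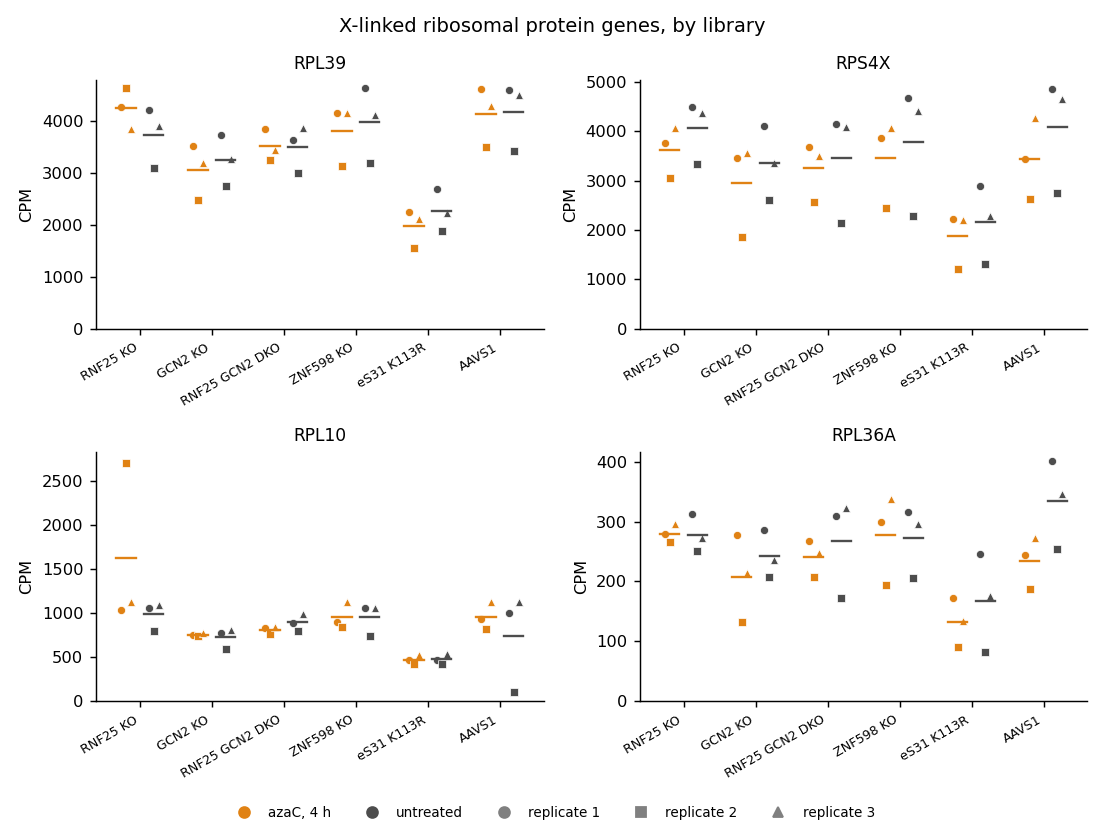
CPM of the 4 X-linked ribosomal protein genes in every untreated and azaC-treated library, by genotype; horizontal lines are means of 3 libraries. In each panel the eS31 K113R means lie below those of every other line, with RPL39 at 1548 to 2687 CPM against 3424 to 4610 CPM in AAVS1.

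RPL9 was higher in both lines that carry the RNF25 knockout. Its protein, uL6, sits near the factor-binding site of the large subunit, and the gene lies at chr4:39452521-39458949 on the minus strand. RPL9 had 2024, 1646 and 1962 CPM in untreated RNF25 KO, 1792, 2256 and 1986 CPM after azaC, and 1349, 1472 and 1936 CPM after HF. In DKO it had 2243, 1581 and 2219 CPM untreated and 1957, 1759 and 1986 CPM after azaC. AAVS1 had 1239, 1079 and 1351 CPM untreated, 1109, 931 and 1281 CPM after azaC, and 1056, 932 and 1284 CPM after HF. Between the untreated and azaC-treated libraries of either RNF25 line and those of AAVS1 there was no overlap.

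The averaged difference from AAVS1 was 0.74 ± 0.13 in RNF25 KO and 0.75 ± 0.13 in DKO, with edgeR adjusted p = 1.31e-04 and 1.25e-04. It passed in 21 of 21 alternative fits in each line. RPL9 was the only 1 of the 77 called in either line in these averages, against 3.07% of all genes called higher (5.26% in either direction) in RNF25 KO and 2% called higher (3.54% in either direction) in DKO. In untreated cells it was 0.72 ± 0.19 in DKO (edgeR adjusted p = 0.0349, against 0.867% of all genes called higher and 1.42% in either direction) and 0.62 ± 0.19 in RNF25 KO (adjusted p = 0.0978 in edgeR, with 1.62% of all genes called). In untreated RNF25 KO 0 of 77 passed, with 3 at an unadjusted p under 0.05, against 9.71% of all genes, and DESeq2 called RPL9 alone. Without AAVS1 untreated replicate 2 the untreated DKO difference of RPL9 no longer passed, as without AAVS1 untreated replicate 1 or DKO untreated replicate 1 or 3 (adjusted p up to 0.187).

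Genes near RPL9 were higher on balance in the same lines. The 38 other tested genes within 10 Mb had a median of 0.66 in RNF25 KO, with 16 called higher and 1 lower, and of 0.91 in DKO, with 24 higher and 2 lower. By library that median was 0.385 to 0.98 in the 15 libraries of the RNF25 lines and -0.27 to 0.41 in the other 30, so the ranges overlapped. Among the other 30, the 6 eS31 K113R libraries were at 0.16 to 0.41, where RPL9 itself was at -0.13 ± 0.13 against AAVS1 (edgeR adjusted p = 0.691). The remaining chromosome 4 members of the group, RPL34 (eL34) and RPS3A (eS1), were at -0.20 (SE 0.145) and -0.14 (SE 0.13) in RNF25 KO. In DKO they were at -0.26 (SE 0.145) and -0.33 (SE 0.13), and neither passed. Genes within 10 Mb of RPL34 had medians of -0.06 and -0.02 in the 2 lines, and those near RPS3A -0.16 and -0.04. Copy number was not measured, and its part in this was not tested.

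**Figure D5:**
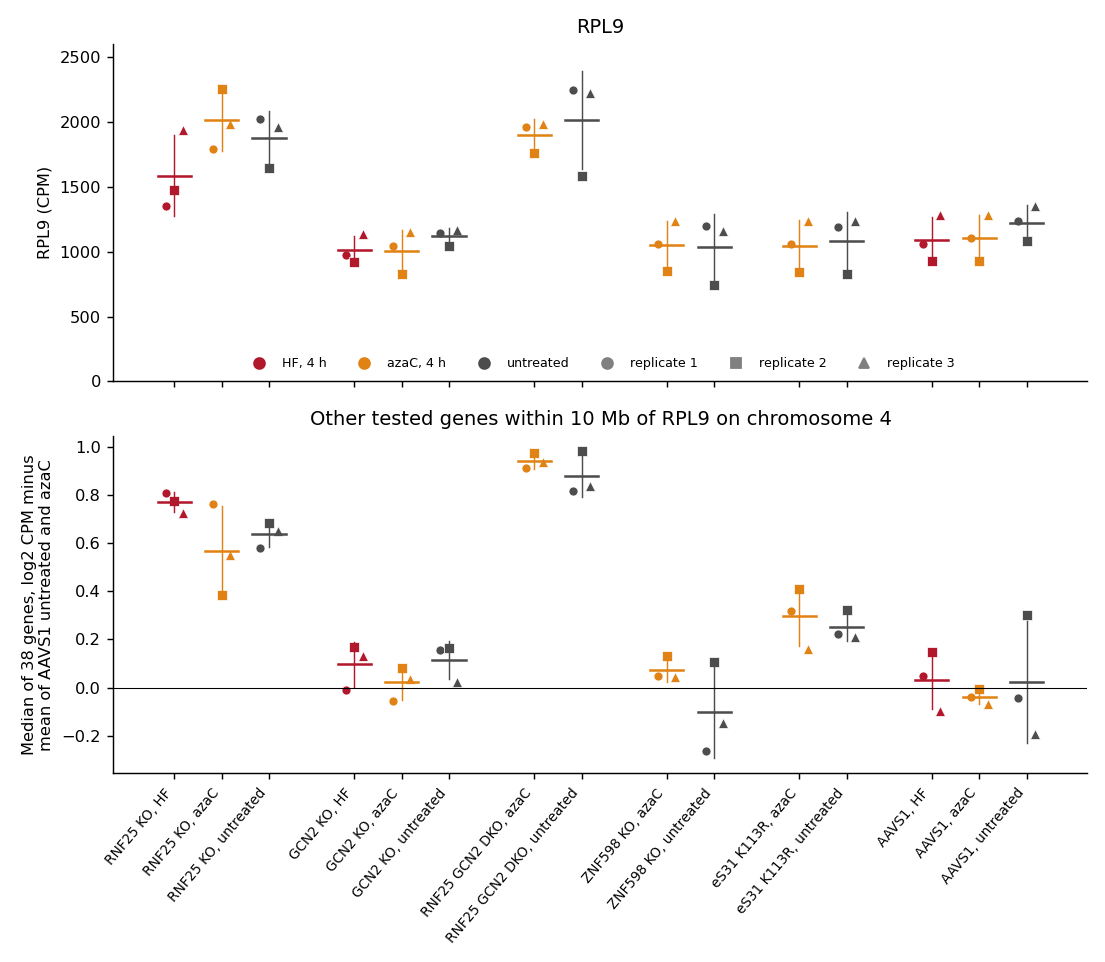
RPL9 in CPM (upper panel) and the median of the 38 other tested genes within 10 Mb, as log2 CPM minus the mean of untreated and azaC-treated AAVS1 (lower panel), by group; points are libraries, horizontal lines means and vertical lines 1 SD (n = 3). The 15 libraries of RNF25 KO and RNF25 GCN2 DKO run from 0.385 to 0.98 in the lower panel, and the other 30 from -0.27 to 0.41, so the ranges overlap.

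RPL39L, the second gene for eL39, was higher in GCN2 KO, at a low level. It had 31.8, 34.35 and 45.6 CPM in untreated GCN2 KO and 22.7, 40.3 and 35.2 CPM after azaC. AAVS1 had 13.7, 19.3 and 28.1 CPM untreated and 15.9, 27.1 and 16.95 CPM after azaC. The untreated groups did not overlap and the azaC groups did. The averaged difference was 0.78 ± 0.22, edgeR adjusted p = 0.0325, and 10 of 21 alternative fits lost it. It missed the threshold without untreated replicate 1 or 2 or azaC replicate 1 or 3 of AAVS1, or untreated replicate 3 or azaC replicate 2 or 3 of GCN2 KO (adjusted p up to 0.115). It was the only 1 of 77 called in GCN2 KO, against 2.24% of all genes called higher and 3.87% in either direction, and its 87 neighbours within 10 Mb had a median of 0.02. Without AAVS1 untreated replicate 2 the 1 call was of another gene, with RPL39L at adjusted p = 0.0726 in edgeR. In untreated GCN2 KO 0 of 77 passed in edgeR, against 1.05% of all genes, and 0 by DESeq2. There 1 was at an unadjusted p under 0.05 (RPL39L, 0.85 ± 0.32), against 9.58% of all genes. RPS27L, a second gene for eS27 that p53 induces, passed in no comparison.

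Of the 5 lines, DKO had the lowest median change over the 77 genes. Averaged over untreated and azaC it was -0.15, against 0.01 for all tested genes, and 63 of 77 genes were negative. Of 14 genes at an unadjusted p under 0.05, against 12.59% of all genes, 13 were lower, led by RPS15A (uS8) at -0.35 ± 0.125 and RPS3A at -0.33 ± 0.13, and none of the 13 passed after adjustment in edgeR. With the replicate number as a block edgeR called 8 genes, RPL9 and 7 others (RPL13A, RPL22, RPL4, RPL7, RPL7A, RPS23 and RPS3A), and DESeq2 without the block called 2 (RPL9 and RPL7A). Shares of all genes called in these fits are not given here. Medians in the other averages were 0.02 in RNF25 KO, 0.01 in eS31 K113R, -0.04 in GCN2 KO and -0.04 in ZNF598 KO. Without AAVS1 untreated replicate 2 every one of these medians was lower, at -0.25 in DKO, -0.06 in RNF25 KO, -0.085 in eS31 K113R, -0.14 in GCN2 KO and -0.14 in ZNF598 KO. In DKO 31 of the 77 genes were then lower at an unadjusted p under 0.05, against 13.31% of all genes in either direction, and 2 were called. In ZNF598 KO 0 of 77 were called in edgeR, untreated (0.93% of all genes called) or averaged (2.57% called). There was 1 gene at an unadjusted p under 0.05 in each, RPS2 at 0.45 ± 0.17 untreated and RPL24 at -0.22 ± 0.10 averaged, against 8.93% and 11.38% of all genes, and DESeq2 called 0 in both. Without AAVS1 untreated replicate 2, RPS2 was at 0.135 ± 0.14 in untreated ZNF598 KO.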

How the data were processed

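PolyA mRNA of HAP1 cells was sequenced in 45 libraries, and whole-number read counts per gene were deposited as 1 table. Per the submitters' processing notes the authors used STAR 2.7.10b, HTSeq 0.9.1 and GRCh38 to make these deposited counts. Neither the annotation release nor the strand setting is given in the sources used here. Gene IDs were matched to GENCODE 29.

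Groups came from the labels. A filter on low counts (filterByExpr, minimum 10) kept 11078 genes, and entries without a symbol held 0.0286% of counts. edgeR 4.0.16 (R 4.3.3, limma 3.58.1) scaled libraries by TMM and fitted 1 mean for each of 15 groups. Its two-sided quasi-likelihood test was adjusted by Benjamini-Hochberg within each of 28 comparisons, with a threshold of 0.05. Responses to a drug were compared within a genotype, averaged over genotypes and between genotypes, and lines were set against AAVS1 untreated or averaged over untreated and azaC. CPM uses TMM-scaled library sizes, and log2 CPM a prior count of 2. A ± after a log2 change is its SE. The test was tested on simulated data. Library totals of 1135498 to 2478875 counts set the precision, which the SEs carry.

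Alternatives were other scalings, no filter, the replicate number as a block, removal of length and GC trends, DESeq2 1.42.0, fits on fewer libraries and leaving out each library in turn. Named are up to 5 called genes per comparison and direction, RPS27A, the second genes of near-identical proteins, and the extremes of level (5 each way), spread and average drug change (3 each way). Some genes that this rule names are not reported here. The other genes named were chosen after their values were seen. The genes, lists and tests were chosen with earlier results of these data known.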

Additional observations from a re-analysis of the deposited data

How the results depend on the processing

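Of 251 counts of called ribosomal protein genes under alternatives, 220 were within 1.5 times the reported count. Most of the 251 belong to comparisons with 0 called, where a count that stays 0 is among the 220. Where genes were called, the count held in 5 of 9 alternatives for the HF, DKO and GCN2 KO averages. For the RNF25 KO average and untreated DKO it held in 7 of 9. For eS31 K113R it held in 5 of 10 untreated and 9 of 10 averaged. Of 421 values for named genes, 334 kept direction and side of the threshold. The causes of the changes were not tested. For HF averaged over 3 genotypes the 3 calls became 1 with library totals alone, 0 with no filter, 8 with the replicate block and 1 with only the libraries compared, and 1 to 4 leaving out single libraries. RPL24 passed in 26 of 27 alternatives (adjusted p up to 0.0614), RPL23 in 15 (up to 0.262) and RPL7A in 12 (up to 0.247). Single-genotype HF counts of 0 became 1 in AAVS1 with the replicate block (RPL24) and with length and GC trends removed (RPL7A). In RNF25 KO they became 1 with the replicate block and with DESeq2 (RPL24 in each), and 0 to 1 leaving out single libraries. The azaC count in RNF25 KO was 1 with no filter and 0 to 1 leaving out single libraries (RPS28, without azaC replicate 3), and the azaC average was 1 with no filter (RPS10).

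For untreated eS31 K113R the 2 calls became 4 with no filter, 4 with the replicate block, 4 without both libraries that stand apart in GC slope, 0 with only the libraries compared and 0 without those titled eS32_K223R, and 1 to 4 leaving out single libraries. Its averaged count of 4 was 1 without those titled eS32_K223R, and 3 to 4 leaving out single libraries. RPS27A in that average turned to -0.011 with library totals alone, -0.001 with no filter, -0.016 with the replicate block and -0.104 without both libraries that stand apart, with -0.094 to 0.149 leaving out single libraries. The RNF25 KO average, with 1 call reported, had 4 with no filter and 4 with the replicate block, and was 1 to 2 leaving out single libraries. Untreated RNF25 KO had 1 (RPL9) with library totals alone, the replicate block and DESeq2. The DKO average had 8 with the replicate block, 2 with length and GC trends removed, 2 with DESeq2, 3 without both libraries that stand apart, and 1 to 2 leaving out single libraries. Untreated DKO had 0 with only the libraries compared and without both libraries that stand apart, and 0 to 1 leaving out single libraries. The GCN2 KO average had 2 with library totals alone, 2 with the replicate block, 0 with only the libraries compared, 2 without both libraries that stand apart, and 0 to 1 leaving out single libraries. RPL39L was not among the 2 called without both libraries that stand apart (edgeR adjusted p = 0.0743).

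Same-numbered libraries deviated together in part: 229 of 315 pairs had a correlation over 0.1 (median 0.149, from -0.247 to 0.463). The 630 pairs with different numbers had a median of -0.085. The reported fit did not use the number, and the replicate block above is the alternative that did. No scaling moved the median of all genes from its reported value by more than 0.067.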
